A study of Mus musculus with 12 samples.

Results

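The 10 genes described here encode antioxidant enzymes, a cystine transporter and metallothioneins: Nqo1, Gclc, Gclm, Txnrd1, Srxn1, Slc7a11, Mt1, Mt2, Sod2 and Gpx3. They were chosen by symbol, and each symbol was found once among the 53801 genes of the count and TPM tables (TPM being transcript abundance scaled to a fixed total per library). RNA was sequenced from 12 whole hearts of male C57BL/6N mice, operated at 10 to 14 weeks of age, with no engineered allele named in the labels. There were 4 sham hearts (chest surgery without an infarct), 4 hearts 1 day after acute myocardial infarction (day 1 AMI) and 4 hearts 7 days after it (day 7 AMI). The infarct was made by permanent ligation of the left anterior descending coronary artery under isoflurane, and the artery was not reopened. The day on which sham hearts were taken is not given in the sources used here.

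Cells meet oxidants with several linked systems. NRF2 (gene Nfe2l2) is a transcription factor that KEAP1 holds down and that electrophiles and oxidants release. It acts at antioxidant response elements (AREs) near genes of NADPH, glutathione and thioredoxin chemistry. Glutathione is made from cysteine, much of which cells import as cystine, and thioredoxin reductase uses NADPH to keep thioredoxin reduced. Metallothioneins are small cysteine-rich proteins that bind zinc and copper, and the zinc-sensing factor MTF1 acts at metal response elements (MREs) in their promoters. In the heart, cardiomyocytes are packed with mitochondria, and manganese superoxide dismutase (SOD2) removes superoxide inside them.

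Counts were compared with edgeR's quasi-likelihood test in 1 fit of the 12 libraries, and p-values were adjusted by Benjamini-Hochberg over the 15306 genes tested. A gene is said to have risen or fallen where its adjusted p (false discovery rate, FDR) was under 0.05, and it is called a differentially expressed gene (DEG) where its fold change was also 2 or greater. Values per heart are CPM (counts scaled to a common library size after TMM), which serve to compare hearts within a gene, whereas levels of different genes are compared in TPM, which accounts for gene length. Errors of log2 fold changes are standard errors (SE), other errors are SD over 4 hearts, and all 10 genes passed the filter on low counts.

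Library totals ran from 23204551 to 32166517 counts, and the TMM factors separated the groups, at 0.781 to 0.917 in sham, 1.014 to 1.058 at day 1 and 1.103 to 1.171 at day 7. Genes of the mitochondrial genome took 27.4% of the counts of sham replicate 1 and 12.1% to 21.5% of those of the other hearts. The hearts carried strong cardiomyocyte markers, whose summed level over 10 genes was 92896 to 102483 CPM in sham, 49815 to 68935 CPM at day 1 and 38511 to 48691 CPM at day 7. Over the same groups, 10 fibroblast markers summed to 1187 to 1431, 1839 to 2478 and 8497 to 16856 CPM, and 10 monocyte and macrophage markers to 291 to 451, 559 to 804 and 827 to 1273 CPM. The 10 neutrophil markers summed to 2.96 to 61.0 CPM in sham, 53.4 to 191 CPM at day 1 and 9.31 to 43.4 CPM at day 7, and no marker of these 4 lists was at or under 3 counts over a whole group. In these bulk samples, fewer cells of a type and less RNA per cell cannot be told apart. Replicate 2 of the day 1 hearts had the lowest cardiomyocyte sum and the highest neutrophil and monocyte sums of its group. Replicate 2 of sham had the highest erythroid sum (4467 CPM, against 491 to 1182 CPM in the other sham hearts). It also had the lowest cardiomyocyte sum (92896 CPM) and the highest neutrophil (61.0 CPM) and monocyte (451 CPM) sums of sham. Both hearts are followed below, and the part of cell makeup in any result was not tested.

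The reference for scaling bears on small changes. TMM left the median log2 fold change of all tested genes near 0 (-0.01 at day 1 and 0.03 at day 7 against sham), with 3360 genes higher and 3043 lower at day 1, 4728 and 4353 at day 7, and 3701 and 3496 for day 7 against day 1. Scaling to library totals moved the median to 0.26 and 0.43 against sham, with 6289 higher and 1061 lower at day 1, 8237 and 1659 at day 7, and 4772 and 2168 for day 7 against day 1. On log2(TPM + 1) the median was 0.23 at day 1 and 0.44 at day 7, with 6171 higher and 737 lower at day 1, 9423 and 1023 at day 7, and 5402 and 1302 between the AMI days. Each direction below is given on TMM-scaled counts, and where the text prints a value against sham whose direction turned, or whose call was lost, under the other scalings, it says so beside it.

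At day 1, 4 of the 10 genes rose: the thioredoxin and sulfiredoxin enzymes Txnrd1 and Srxn1, the cystine transporter Slc7a11 and the metallothionein Mt2. One gene fell, Sod2, and Nqo1, Gclc, Gclm, Mt1 and Gpx3 did not pass the test. The risers were all DEGs, against 22.0% of all tested genes that rose and 7.79% that were DEGs upward, and Sod2 was not a DEG, against 19.9% of all genes that fell and 2.98% that were DEGs downward. By day 7 the pattern differed. Slc7a11 and Gpx3 stood above sham and Sod2, Mt1, Nqo1 and Gclm below it, with Slc7a11 the 1 DEG upward and Sod2 the 1 DEG downward. The shares among all genes at day 7 were 30.9% that rose and 28.4% that fell, and 15.3% and 5.88% for DEGs. Slc7a11 had at most 3 counts in a sham library, so it could pass the filter on low counts only through its level after AMI. Its calls at day 1 and day 7 are therefore no support for the counts of genes that rose.

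**Figure D1:**
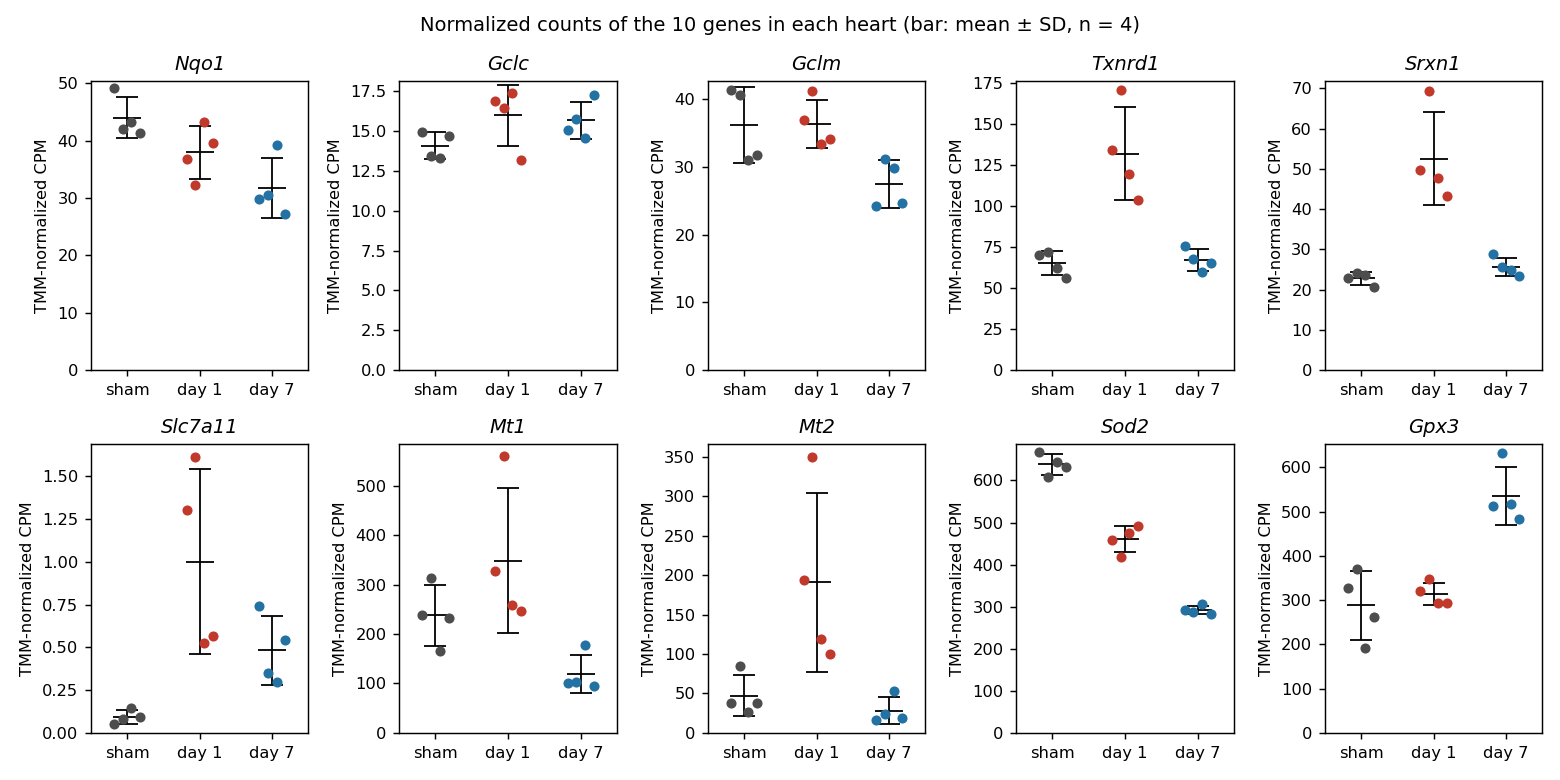
Level of each gene in each heart, in TMM-scaled CPM on an axis that starts at 0, for the 3 groups, with 1 point per heart and bars for the mean ± SD of 4 hearts. The day 1 hearts of Txnrd1, Srxn1, Slc7a11 and Mt2 all lie above the sham hearts, Sod2 steps down at each time, and Gpx3 is highest at day 7.

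Promoters are shown for the metallothioneins, Srxn1 and Slc7a11, because these genes had the steepest day 1 changes or, for Mt1, share a locus with one of them. The 250 bases before the RefSeq start (GRCm38.p6) are chr8:94178839-94179088 for Mt1, chr8:94172368-94172617 for Mt2 and chr2:152105274-152105523 for Srxn1, all on the plus strand, and chr3:50443614-50443863 on the minus strand for Slc7a11. Each is written 5′ to 3′ along its gene. Capitals mark the MRE core in Mt1, MRE cores and the ARE core in Mt2, AP-1 sites and the G form of the ARE core in Srxn1, and the amino acid response element (AARE) core in Slc7a11.
Mt1: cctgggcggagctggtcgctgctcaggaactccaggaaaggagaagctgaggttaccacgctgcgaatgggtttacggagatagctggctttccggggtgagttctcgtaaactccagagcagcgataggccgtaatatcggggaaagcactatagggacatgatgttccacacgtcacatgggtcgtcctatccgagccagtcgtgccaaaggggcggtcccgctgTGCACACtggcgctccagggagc
Mt2: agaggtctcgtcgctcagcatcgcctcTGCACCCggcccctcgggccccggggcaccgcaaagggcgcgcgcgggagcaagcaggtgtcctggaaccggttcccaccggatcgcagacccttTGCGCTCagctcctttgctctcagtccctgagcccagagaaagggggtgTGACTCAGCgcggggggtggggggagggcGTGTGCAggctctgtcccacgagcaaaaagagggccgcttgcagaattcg
Srxn1: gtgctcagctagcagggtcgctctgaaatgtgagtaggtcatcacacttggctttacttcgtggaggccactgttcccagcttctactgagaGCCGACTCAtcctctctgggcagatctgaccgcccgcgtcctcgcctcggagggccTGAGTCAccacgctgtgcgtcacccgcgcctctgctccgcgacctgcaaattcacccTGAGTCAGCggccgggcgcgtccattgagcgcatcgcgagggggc
Slc7a11: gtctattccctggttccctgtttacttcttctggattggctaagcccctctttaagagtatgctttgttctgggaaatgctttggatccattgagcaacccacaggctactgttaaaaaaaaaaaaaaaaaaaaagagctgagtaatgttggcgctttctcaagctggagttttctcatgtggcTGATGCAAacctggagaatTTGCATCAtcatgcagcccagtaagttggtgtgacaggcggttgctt

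The motifs were searched on both strands in windows of 300 bases, from 250 before to 50 after a start, and 9 of the 10 genes had a RefSeq window, all but Gclc. The MRE core was spelled TGCACNC or TGCGCNC, the ARE core TGACNNNGC with a G form TGAGNNNGC, the AP-1 site TGANTCA and the AARE core TGATGCAA, and an AP-1 site can overlap either ARE form. The G form and the AARE core were added after the sequences had been read. The Mt2 window held 4 MRE cores, a number reached by 0.517% of the 32851 windows, and 1 ARE core that overlaps its AP-1 site. The Mt1 window held 3 MRE cores, a number reached by 1.97% of windows, with 1 of them before the start. Srxn1 had 2 AP-1 sites, a number found in 0.460% of windows, and 2 ARE cores of the G form, a number reached by 1.91% of windows, where 17.6% held at least 1. One of the AP-1 sites lies inside a G form core, and the Srxn1 window also held 1 ARE core, after the start, and 1 MRE core. Slc7a11 had 2 AARE cores facing each other, a number found in 0.006% of windows, where 0.895% held at least 1, and 1 ARE core of the G form. Gclm held 1 ARE core and 3 MRE cores, and of 3 Txnrd1 windows 1 held an ARE core, a motif found in 12.4% of windows. The windows of Nqo1, Sod2 and Gpx3 held none of these letters. A match describes letters in a window, not a site in use.

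Txnrd1 (ENSMUSG00000020250, chr10:82833951-82897712, plus strand) encodes cytosolic thioredoxin reductase, which keeps thioredoxin reduced at the cost of NADPH. It stood at 70.1, 72.1, 62.3 and 56.0 CPM in the 4 sham hearts, 134, 170.3, 119 and 104 CPM at day 1, and 75.8, 67.5, 60.0 and 65.5 CPM at day 7. Every day 1 heart was above every sham and every day 7 heart, whereas the sham and day 7 ranges overlapped. The log2 fold change was 1.02 (SE 0.136, adjusted p = 9.48e-05) at day 1 and 0.05 (SE 0.136, adjusted p = 0.793) at day 7 against sham, and -0.97 (SE 0.136, adjusted p = 6.39e-05) between the AMI days. The day 1 change sat near the fold limit of 2: it was 1.00 without sham replicate 3, 0.95 without sham replicate 4 and 0.87 without day 1 replicate 2, each still with FDR under 0.05. The fall between the AMI days passed the fold limit without day 1 replicate 3 (-1.02), day 1 replicate 4 (-1.08) or day 7 replicate 1 (-1.04). On TPM, Txnrd1 stayed above sham at day 7, by 0.54 on the log2(TPM + 1) scale (limma, adjusted p = 0.00435).

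Srxn1 (ENSMUSG00000032802, chr2:152105516-152111376, plus strand) encodes sulfiredoxin, which repairs peroxiredoxins that peroxide has over-oxidised. Its 4 sham hearts gave 23.0, 24.1, 23.8 and 20.6 CPM, the day 1 hearts 49.7, 69.4, 47.8 and 43.2 CPM, and the day 7 hearts 28.8, 25.7, 24.8 and 23.4 CPM. The lowest day 1 heart was above the highest heart of both other groups. Srxn1 rose by 1.20 on the log2 scale at day 1 (SE 0.130, adjusted p = 2.67e-05). Between the AMI days its log2 fold change was -1.03 (SE 0.129, adjusted p = 2.53e-05). The fall was under the fold limit without day 1 replicate 2 (-0.87) or day 7 replicate 4 (-0.99). Its day 7 difference from sham was 0.17 (SE 0.130, adjusted p = 0.286) on TMM-scaled counts and 0.67 on log2(TPM + 1) (limma, adjusted p = 0.00124).

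Slc7a11 (ENSMUSG00000027737, chr3:49892526-50443614, minus strand) encodes xCT, the light chain of the cystine-glutamate exchanger, which brings in the cystine from which cysteine for glutathione is made. It was the scarcest of the 10. The sham libraries held 1, 2, 3 and 2 counts (0.0522, 0.0821, 0.146 and 0.0956 CPM), the day 1 libraries 34, 54, 16 and 18 counts (1.30, 1.61, 0.523 and 0.568 CPM), and the day 7 libraries 24, 9, 8 and 16 counts (0.740, 0.348, 0.295 and 0.544 CPM). All AMI hearts were above all sham hearts, and the 2 AMI groups overlapped. No sham library exceeded the floor of 3 counts, so the gene could pass the filter only through its higher level after AMI, and its call is no support for the count of genes that rose. The summed counts of 122 at day 1 against 8 in sham gave a ratio of 10.6 after scaling, with a 95% counting interval of 5.23 to 25.2, and the 57 counts of day 7 gave 5.28 (2.51 to 12.8). These intervals cover counting error and not the spread between hearts. In edgeR the log2 fold change was 3.35 (SE 0.553, adjusted p = 0.000371) at day 1 and 2.32 (SE 0.592, adjusted p = 0.00373) at day 7, values that depend on the prior count. On the log2(TPM + 1) scale, where so low a gene can hardly move, the day 7 difference was 0.11 (limma, adjusted p = 0.146). Between the AMI days the change was -1.03 (SE 0.409, adjusted p = 0.0523), and it passed the threshold without day 1 replicate 3 (-1.24), day 1 replicate 4 (-1.23) or day 7 replicate 1 (-1.32).

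Gclc and Gclm encode the catalytic and modifier subunits of glutamate-cysteine ligase, the rate-limiting enzyme of glutathione synthesis. Gclc (ENSMUSG00000032350, chr9:77754535-77794485, plus strand) stood at 14.9, 13.4, 13.3 and 14.7 CPM in sham, 16.9, 16.5, 17.4 and 13.2 CPM at day 1, and 15.1, 15.8, 14.5 and 17.3 CPM at day 7. One day 1 heart, replicate 4, was below all sham hearts and the other 3 were above them. The log2 difference from sham was 0.18 at day 1 (SE 0.102, adjusted p = 0.164) and 0.15 at day 7 (SE 0.102, adjusted p = 0.209). Without day 1 replicate 4 the day 1 difference was 0.27 and passed (adjusted p = 0.0316), and on log2(TPM + 1) both differences passed, at 0.44 and 0.62 (limma, adjusted p = 0.00263 and 7.93e-05). In TPM sham stood apart from both AMI groups: the sham hearts lay between 4.70 and 4.93, the day 1 hearts between 6.10 and 7.27 and the day 7 hearts between 7.06 and 9.05, with the AMI groups overlapping each other.

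Gclm (ENSMUSG00000028124, chr3:122245557-122270732, plus strand) gave 41.4, 40.7, 31.1 and 31.7 CPM in sham, 36.9, 41.1, 33.3 and 34.2 CPM at day 1, and 24.3, 31.2, 29.8 and 24.7 CPM at day 7. All 4 day 7 hearts were below all day 1 hearts, and 1 of them reached the sham range. The log2 fold change was 0.01 at day 1 (SE 0.120, adjusted p = 0.970) and -0.40 at day 7 against sham (SE 0.121, adjusted p = 0.0109), and -0.41 for day 7 against day 1 (SE 0.120, adjusted p = 0.0130). The fall from sham turned with the scaling, to 0.36 on log2(TPM + 1) (limma, adjusted p = 0.142) and to no difference on library totals. Day 1 Gclm was higher than sham on log2(TPM + 1) by 0.71 (limma, adjusted p = 0.0137), and the fall between the AMI days was -0.36 there (adjusted p = 0.185). An antisense gene, Gm17494, covers 4.71% of Gclm exon bases and reached 14 counts in a library at most. Of the 75-base stretches of Gclm, 3.50% are shared with another gene, most often Ppia. Whether this sharing has a part in the difference between counts and TPM was not tested. The ratio of Gclm to Gclc TPM averaged 5.02 ± 1.82 in sham, 5.69 ± 1.23 at day 1 and 3.78 ± 0.569 at day 7, with sham overlapping both AMI groups and every day 7 heart (2.97 to 4.24) below every day 1 heart (4.57 to 6.81). These separations were particular to TPM. By CPM, the ratio of day 7 replicate 3 (Gclm 29.8, Gclc 14.5) was above that of day 1 replicate 3 (33.3 and 17.4). By CPM, too, every sham heart had a higher ratio than every day 7 heart.

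Nqo1 (ENSMUSG00000003849, chr8:107388225-107403206, minus strand) encodes a quinone reductase that is a classical NRF2 target. The sham hearts gave 49.2, 42.0, 43.3 and 41.4 CPM, the day 1 hearts 36.8, 32.3, 43.2 and 39.5 CPM, and the day 7 hearts 29.8, 30.6, 39.2 and 27.1 CPM. The day 7 hearts were all below the sham hearts, and the day 1 hearts overlapped both. At day 1 the log2 difference from sham was -0.21 (SE 0.117, adjusted p = 0.162), a direction that turned on log2(TPM + 1) (0.10) and on library totals (0.06), and at day 7 Nqo1 fell by 0.47 (SE 0.118, adjusted p = 0.00319). The day 7 fall turned on log2(TPM + 1), to 0.07 (limma, adjusted p = 0.578), and on library totals it kept its direction but not its call (-0.07, edgeR, adjusted p = 0.570). For day 7 against day 1 the value was -0.26 (SE 0.117, adjusted p = 0.0826), which passed without day 1 replicate 2 (-0.34) or day 7 replicate 3 (-0.38).

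The metallothionein genes lie side by side, Mt2 (ENSMUSG00000031762) at chr8:94172664-94173568 and Mt1 (ENSMUSG00000031765) at chr8:94179082-94180327, both on the plus strand. Mt2 stood at 38.0, 85.2, 26.6 and 38.5 CPM in sham, 194, 349.7, 118 and 100.5 CPM at day 1, and 16.1, 23.5, 53.1 and 19.5 CPM at day 7. The day 1 hearts were all above the hearts of both other groups, and 3 of the 4 day 7 hearts were below every sham heart. Mt2 rose at day 1 by 2.02 on the log2 scale (SE 0.461, adjusted p = 0.00333), and the size ranged from 1.55 to 2.47 when 1 heart at a time was left out. From day 1 to day 7 it fell by 2.77 (SE 0.475, adjusted p = 0.000326). Its day 7 difference from sham was -0.75 (SE 0.456, adjusted p = 0.171), and without day 7 replicate 3 it was -1.26 and passed (adjusted p = 0.0254). An antisense gene, Gm45774, covers 73.5% of Mt2 exon bases, and 30.2% of the 75-base stretches of Mt2 are shared with another gene. Whether counting used strand is not given in the sources used here, so reads of this pair cannot be told apart, though Gm45774 reached only 62 counts in a library.

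Mt1 did not pass the test at day 1 and fell at day 7. Its sham hearts gave 239, 314, 165 and 232 CPM, its day 1 hearts 328, 561, 258 and 246 CPM, and its day 7 hearts 101, 104, 177 and 94.2 CPM. Sham overlapped both AMI groups, whereas the day 7 hearts were all below the day 1 hearts. The log2 difference at day 1 was 0.55 (SE 0.270, adjusted p = 0.116), which was 0.22 without day 1 replicate 2 and passed on log2(TPM + 1), at 0.82 (limma, adjusted p = 0.0231). At day 7 Mt1 fell by 1.00 against sham (SE 0.273, adjusted p = 0.00586), just short of the fold limit of 2, which it crossed without sham replicate 3 (-1.14), sham replicate 4 (-1.01) or day 7 replicate 3 (-1.25), and barely crossed without day 1 replicate 1, 2 or 4. On log2(TPM + 1) the fall was -0.48 and did not pass (limma, adjusted p = 0.127), nor did it on library totals (-0.61, adjusted p = 0.0637). From day 1 to day 7 Mt1 fell by 1.55 (SE 0.276, adjusted p = 0.000431).

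The balance of the pair shifted between groups. Mt2 TPM was 0.185, 0.317, 0.189 and 0.194 of Mt1 TPM in the sham hearts, 0.693, 0.725, 0.536 and 0.478 at day 1, and 0.187, 0.263, 0.348 and 0.242 at day 7. All 4 day 1 hearts were above the other 8, and sham and day 7 overlapped. Both libraries numbered 2 that stand out, in sham and at day 1, had the highest ratio of their group. Summed, the 2 genes took 808 to 1734 TPM in sham, 1834 to 4701 TPM at day 1 and 690 to 1283 TPM at day 7, so the day 1 sums lay above all others. With replicate 2 of both sham and day 1 left out, Mt2 was 2.00 higher at day 1 and Mt1 0.39 on the log2 scale (adjusted p = 0.00203 and 0.200).

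**Figure D2:**
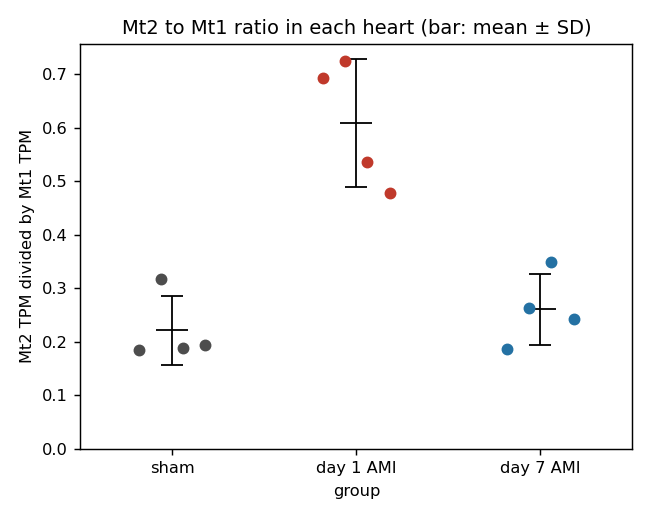
Mt2 TPM divided by Mt1 TPM in each heart, on an axis that starts at 0, with 1 point per heart and bars for the mean ± SD of 4 hearts. The day 1 AMI hearts lie between 0.478 and 0.725, and all sham and day 7 AMI hearts lie between 0.185 and 0.348.

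Sod2 and Gpx3, which act on superoxide in mitochondria and on peroxide outside cells, moved in opposite directions. Sod2 (ENSMUSG00000006818, chr17:13006846-13040063, plus strand) gave 668, 608, 643 and 633 CPM in sham, 459, 418, 474 and 491 CPM at day 1, and 292, 287, 307 and 283 CPM at day 7. The 3 groups did not overlap. Sod2 fell by 0.47 at day 1 (SE 0.0747, adjusted p = 0.000285), by 1.13 at day 7 against sham (SE 0.0755, adjusted p = 5.93e-08) and by 0.66 between the AMI days (SE 0.0749, adjusted p = 1.22e-05). The day 1 fall was -0.15 on log2(TPM + 1) and did not pass (limma, adjusted p = 0.109). The day 7 fall from sham kept its FDR under 0.05 in every alternative. Its size was under the fold limit of 2 on log2(TPM + 1), log2(TPM + 0.1) and library totals, reaching -0.57 at the smallest. The cardiomyocyte markers moved with it: 9 of 10 fell at day 1 and 10 of 10 at day 7, against 19.9% and 28.4% of all tested genes. Their median log2 fold change was -0.66 and -1.19, and their part in the Sod2 result was not tested. Of the 75-base stretches of Sod2, 16.2% are shared with another gene, most often AC166110.4, which is absent from the deposited counts. Some Sod2 reads may therefore be uncertain, which was not tested.

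Gpx3 (ENSMUSG00000018339, chr11:54902453-54910377, plus strand), the secreted selenium-containing glutathione peroxidase, stood at 327, 371, 192 and 261 CPM in sham, 321, 347, 294 and 294 CPM at day 1, and 512, 631, 517 and 483 CPM at day 7. The day 7 hearts were above all other hearts, and sham and day 1 overlapped. The log2 fold change was 0.12 at day 1 (SE 0.161, adjusted p = 0.559) and 0.90 at day 7 (SE 0.162, adjusted p = 0.000277) against sham, and 0.77 for day 7 against day 1 (SE 0.162, adjusted p = 0.00145). The day 7 rise passed the fold limit of 2 without sham replicate 2 (1.04). On log2(TPM + 1) Gpx3 was also higher than sham at day 1, by 0.48 (limma, adjusted p = 0.0297). All 10 fibroblast markers and all 10 monocyte and macrophage markers also rose at day 7, with medians of 2.22 and 1.60, against 30.9% of all tested genes. Of 8 endothelial markers, 5 rose and 1 fell. At day 1, when Gpx3 did not pass, 7 fibroblast markers rose and 1 fell, and 9 monocyte and macrophage markers rose, against 22.0% of all genes. The part of these cells in the Gpx3 result was not tested.

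**Figure D3:**
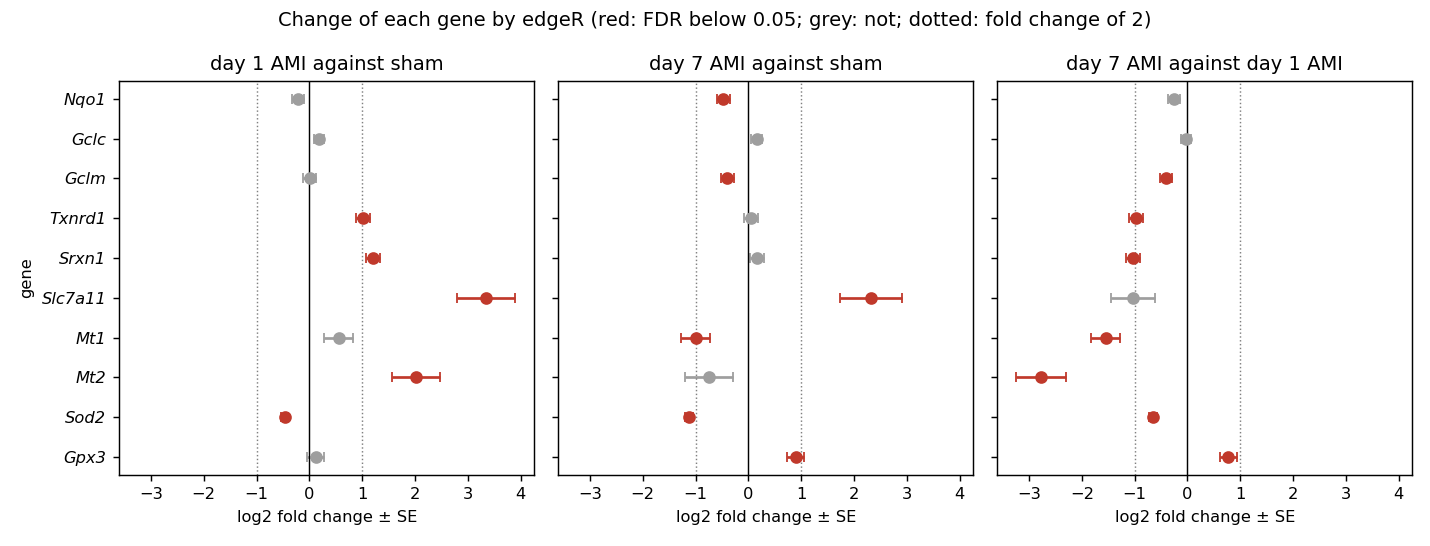
Log2 fold change of each gene by edgeR in the 3 comparisons, with SE bars, red where FDR was under 0.05, and dotted lines at a fold change of 2. Slc7a11, Mt2, Srxn1 and Txnrd1 lie right of the dotted line at day 1 against sham, and 6 genes are red and negative for day 7 against day 1.

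From day 1 to day 7, 6 of the 10 genes fell (Mt1, Mt2, Srxn1, Txnrd1, Sod2 and Gclm) and 1 rose (Gpx3), against 22.8% and 24.2% of all tested genes. DEGs downward were Mt1, Mt2 and Srxn1, against 2.69% of all genes, and there was no DEG upward among the 10, against 8.55%. By the TMM-scaled edgeR test, 2 further genes had an unadjusted p under 0.05 in this comparison, Slc7a11 and Nqo1, both with lower means at day 7. The median log2 fold change of the 10 was 0.37 at day 1 and -0.18 at day 7 against sham, and -0.81 between the AMI days, beside -0.01, 0.03 and 0.02 for all tested genes. The 3 comparisons share groups, so they are not independent of each other.

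The genes differed widely in level. In sham, Mt1 led at 932 ± 271 TPM, followed by Gpx3 at 236 ± 68.5, Mt2 at 219 ± 134 and Sod2 at 194 ± 7.61, and those 3 did not separate beyond their spread. Below them came Nqo1 at 37.0 ± 1.98 TPM, Txnrd1 at 25.5 ± 3.88 and Gclm at 24.2 ± 9.12, the last pair overlapping. The highest sham heart for Gclm (36.3 TPM) also lay within the Nqo1 range of 34.1 to 38.2 TPM. Srxn1 at 10.7 ± 1.60 TPM, Gclc at 4.81 ± 0.124 and Slc7a11 at 0.0125 ± 0.005 each stood apart from the gene above.

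At day 1, Mt1 (1696 ± 706 TPM) and Mt2 (1082 ± 637 TPM) overlapped at the top. Gpx3 followed at 321 ± 25.6 TPM, Sod2 at 175 ± 14.5 and Txnrd1 at 65.2 ± 13.4, each clear of its neighbours. Nqo1 at 40.0 ± 4.86 TPM, Gclm at 38.8 ± 6.90 and Srxn1 at 30.8 ± 7.03 overlapped in turn. Gclc (6.88 ± 0.530 TPM) and Slc7a11 (0.158 ± 0.0834 TPM) kept the last places. Mt2, which overlapped Gpx3 in sham, was clear above it here, and Txnrd1 stood above Nqo1.

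At day 7, Mt1 (667 ± 190 TPM) and Gpx3 (642 ± 70.4 TPM) overlapped at the top, and Mt2 (182 ± 101 TPM) and Sod2 (130 ± 2.48 TPM) overlapped below them. Nqo1 at 39.1 ± 5.18 TPM, Txnrd1 at 37.4 ± 4.34 and Gclm at 30.0 ± 3.55 overlapped in turn. Srxn1 at 17.6 ± 2.13 TPM, Gclc at 7.98 ± 0.818 and Slc7a11 at 0.0925 ± 0.0299 came last.

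**Figure D4:**
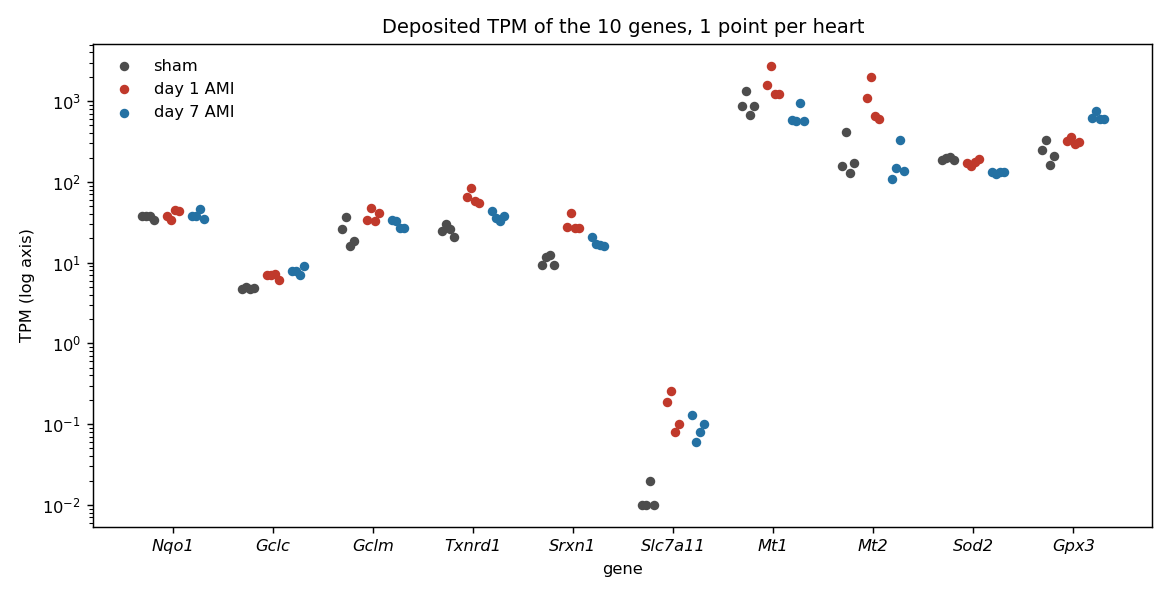
Deposited TPM of each gene in each heart on a log axis, with 1 point per heart and colours for the 3 groups. Slc7a11 lies at 0.26 TPM or less in every heart, whereas Mt1 lies between 563 and 2725 TPM.

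Hearts also differed within groups. The spread relative to the mean (coefficient of variation of CPM) was widest for Mt2, at 55.2% in sham, 59.5% at day 1 and 60.4% at day 7, and for Slc7a11, at 41.5%, 54.1% and 42.1%. For Sod2 it was 3.89%, 6.76% and 3.57%. Day 1 replicate 2 had the highest CPM of its group for Txnrd1, Srxn1, Slc7a11, Mt1, Mt2, Gclm and Gpx3 and the lowest for Nqo1 and Sod2. With replicate 2 of sham and of day 1 left out, the log2 fold change at day 1 was 0.92 for Txnrd1, 1.06 for Srxn1 and 2.94 for Slc7a11 (edgeR, adjusted p = 0.000229, 4.45e-05 and 0.00379), so each rise was still past the FDR threshold.

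For each gene, the genes most like it over the 12 hearts were sought by Pearson's r of log2 CPM, a description in which hearts of 3 groups share the group differences. Txnrd1 and Srxn1 shared neighbours, Clic4 (r = 0.989 and 0.984) and Ctps (0.986 and 0.986). Mt1 and Mt2 shared Csrnp1 (0.931 and 0.928), with Cipc (0.940) closest to Mt1 and the noncoding RNA Neat1 (0.928) to Mt2. The nearest genes to Sod2 were Vdac1 (0.996), Nipsnap2 (0.995) and Gstm7 (0.994). Slc7a11 was closest to Cstb (0.974), Gpx3 to Ildr2 (0.956), Nqo1 to Kmt5a (0.957), Gclc to Dusp14 (0.944) and Gclm to Lyve1 (0.949).

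Around these 10 genes, 7 lists of 154 other genes of the same chemistry were followed, and 143 of these had counts enough to be tested. At day 1, 42 rose (29.4%, against 22.0% of all tested genes) and 43 fell (30.1%, against 19.9%), with 9 DEGs upward (6.29%, against 7.79%) and 5 downward (3.50%, against 2.98%). At day 7, 38 rose against sham (26.6%, against 30.9% of all genes) and 67 fell (46.9%, against 28.4%), with 8 DEGs upward (5.59%, against 15.3%) and 16 downward (11.2%, against 5.88%). Between the AMI days 24 rose (16.8%, against 24.2%) and 64 fell (44.8%, against 22.8%), with 3 DEGs upward (2.10%, against 8.55%) and 7 downward (4.90%, against 2.69%). The counts per list that follow are to be read against the same shares of all tested genes, which were 22.0% risen and 19.9% fallen at day 1 and 30.9% and 28.4% at day 7. The medians over the 143 were -0.02, -0.24 and -0.24. The DEG counts at day 7 turned with the scaling, to 25 upward and 3 downward on log2(TPM + 1). On that scale all tested genes shifted too, with 9423 higher and 1023 lower at FDR under 0.05, against 4728 and 4353 with TMM. The share of DEGs among all genes is not given there, so the turn is not a result about these lists.

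**Figure D5:**
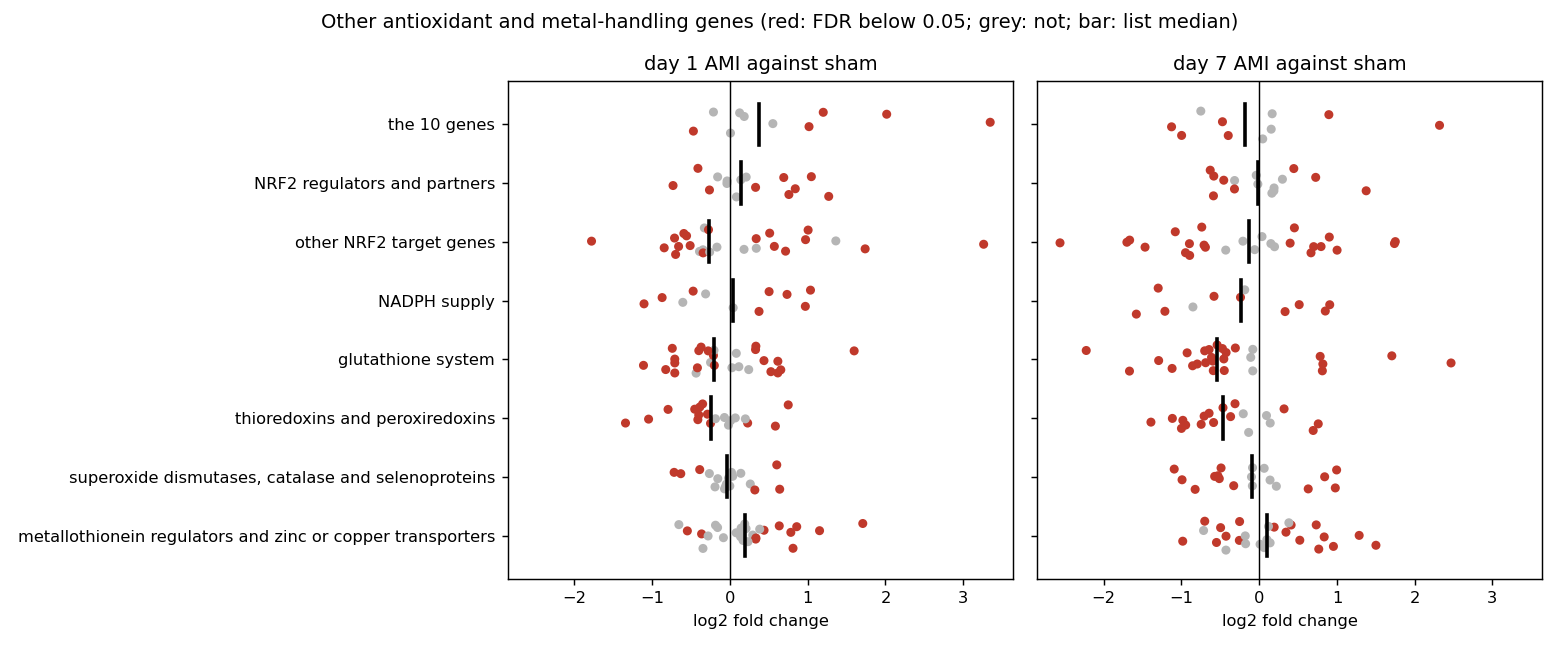
Log2 fold change of the 10 genes and of the tested genes of 7 lists at day 1 AMI and day 7 AMI against sham, with 1 point per gene, red where FDR was under 0.05 and a bar at each list's median. Most lists spread to both sides of 0 at day 1, and the glutathione list has its median at -0.54 at day 7.

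Among 15 NRF2 regulators and partners, 6 rose (40.0%) and 3 fell (20%) at day 1, and 3 rose (20%) and 5 fell (33.3%) at day 7 against sham. Nfe2l2, which encodes NRF2 itself, averaged 60.8 ± 5.01, 67.0 ± 11.3 and 69.3 ± 2.68 CPM in the 3 groups, with log2 differences from sham of 0.14 (adjusted p = 0.313) and 0.19 (adjusted p = 0.145), which passed on log2(TPM + 1), at 0.43 and 0.72. Keap1, its inhibitor, fell by 0.59 at day 7 (adjusted p = 9.18e-05), a call lost on log2(TPM + 1) (-0.04, adjusted p = 0.804) and library totals (-0.20, adjusted p = 0.153). Its day 1 value of -0.04 (adjusted p = 0.764) turned to 0.30 on log2(TPM + 1) and 0.23 on library totals. Bach1, a repressor at the same elements, gave -0.04 and -0.02 (adjusted p = 0.756 and 0.872), and both turned on log2(TPM + 1), to 0.25 and 0.46. The small MAF gene Maff (1.05, adjusted p = 0.0260) and Nfe2 (1.27, adjusted p = 0.0377) rose at day 1. Maff lost its call without sham replicate 1, 3 or 4 or day 1 replicate 1 or 2 (0.80 to 0.95), and Nfe2 without sham replicate 2, 3 or 4 or day 1 replicate 1 or 2 (0.98 to 1.36). The Maff call was also lost with DESeq2 on the compared groups (1.06, adjusted p = 0.0779). That of Nfe2 was also lost without replicate 2 of sham and of day 1 (1.07, edgeR, adjusted p = 0.146). Bach2 fell by 0.73 at day 1 (adjusted p = 0.00285) and was 0.44 above sham at day 7 (adjusted p = 0.0255), a rise lost without sham replicate 2 (0.34) or day 7 replicate 4 (0.32). Both Bach2 calls were lost on log2(TPM + 1) (-0.18 and 0.35, adjusted p = 0.563 and 0.211). Palb2 rose by 0.76 at day 1 and by 1.38 at day 7 against sham, and was the 1 DEG of this list at day 7. Over the alternatives its day 7 value ran from 0.62 to 1.77, with adjusted p at 0.000467 or less. Its day 1 call was lost with DESeq2 on the compared groups (0.76, adjusted p = 0.0653) and without replicate 2 of sham and of day 1 (0.70, edgeR, adjusted p = 0.0636).

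Among 26 other NRF2 targets, 8 rose (30.8%) and 10 fell (38.5%) at day 1, and 9 rose (34.6%) and 11 fell (42.3%) at day 7. Hmox1, which encodes the haem-degrading enzyme haem oxygenase 1, went from 8.71 ± 2.28 CPM in sham to 83.8 ± 28.4 CPM at day 1 and 29.3 ± 11.2 CPM at day 7. Its log2 fold changes were 3.26 (adjusted p = 8.16e-06) and 1.75 (adjusted p = 0.000130) against sham and -1.51 between the AMI days (adjusted p = 0.000456). Ces1d, a carboxylesterase, fell at both times (-1.78 and -2.56, adjusted p = 0.000105 and 1.31e-06), and Gsta3, a glutathione S-transferase, fell by 1.70 at day 7 (adjusted p = 1.18e-05). In the NADPH list, 5 of 11 rose (45.5%) and 3 fell (27.3%) at day 1, and 4 rose (36.4%) and 5 fell (45.5%) at day 7. G6pdx, the entry enzyme of the pentose phosphate pathway, rose by 1.04 and 0.85 (adjusted p = 0.000515 and 0.000953). The mitochondrial enzymes Idh2 (-0.87 and -1.30), Nnt (-1.10 and -1.21) and Nadk2 (-0.47 and -1.58) fell at both times, with adjusted p from 1.86e-07 to 0.00593. The day 1 fall of Nadk2 was lost on log2(TPM + 1) (-0.06, adjusted p = 0.624) and library totals (-0.19, adjusted p = 0.182).

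Of 27 genes of the glutathione system, 8 rose (29.6%) and 12 fell (44.4%) at day 1, and 5 rose (18.5%) and 19 fell (70.4%) at day 7, with medians of -0.21 and -0.54. Gsr, glutathione reductase, rose by 0.62 at day 1 (adjusted p = 0.000487), as did Slc3a2, the heavy chain that pairs with the Slc7a11 protein (0.62, adjusted p = 0.00652). Both fell by 0.70 from day 1 to day 7 (adjusted p = 0.000121 and 0.00235), calls lost on log2(TPM + 1) (-0.33 and -0.40, adjusted p = 0.0662 each). At day 7 both gave -0.08 against sham (adjusted p = 0.523 and 0.673), a direction that turned on log2(TPM + 1), where they passed at 0.47 and 0.50. Gpx1, the cytosolic glutathione peroxidase, rose by 0.53 and 0.78 (adjusted p = 0.00654 and 0.000183). Gpx4, the lipid peroxidase of membranes, fell (-0.40 and -0.43, adjusted p = 0.00324 and 0.00105), but the day 1 call was lost on log2(TPM + 1) (-0.11, adjusted p = 0.287) and library totals (-0.12, adjusted p = 0.223), and the day 7 value turned to 0.13 on log2(TPM + 1) and was -0.02 on library totals. Gpx7, a peroxidase of the endoplasmic reticulum, rose by 1.71 at day 7 (adjusted p = 3.12e-07). Slc1a4, a neutral amino acid transporter, rose by 1.60 and 2.47 (adjusted p = 0.000224 and 1.46e-06), whereas Cth, which makes cysteine from cystathionine, fell (-1.11 and -2.22, adjusted p = 0.0112 and 6.41e-05), with the day 1 call lost on log2(TPM + 1) (-0.43, adjusted p = 0.0535) and without replicate 2 of sham and of day 1 (-0.81, adjusted p = 0.0828).

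Of 19 thioredoxin and peroxiredoxin genes, 3 rose (15.8%) and 10 fell (52.6%) at day 1, and 3 rose (15.8%) and 12 fell (63.2%) at day 7. Txn1, cytosolic thioredoxin and the substrate of the Txnrd1 enzyme, rose by 0.75 at day 1 (adjusted p = 7.34e-05), and its value was -0.66 between the AMI days (adjusted p = 9.24e-05). Txnip, which binds and inhibits thioredoxin, fell (-1.34 and -1.39, adjusted p = 0.00362 and 0.00148). Prdx5, a mitochondrial peroxiredoxin, fell (-0.39 and -1.12, adjusted p = 0.00570 and 5.20e-07), as did Sesn1, a sestrin (-1.05 and -0.71, adjusted p = 0.000296 and 0.00207). The day 1 fall of Prdx5 was lost on log2(TPM + 1) (-0.10, adjusted p = 0.464) and library totals (-0.12, adjusted p = 0.408), and so was the day 7 fall of Sesn1 (-0.18 and -0.31, adjusted p = 0.359 and 0.111).

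Of 18 genes for superoxide dismutases, catalase and selenoproteins, 3 rose and 3 fell (16.7% each) at day 1, and 4 rose (22.2%) and 8 fell (44.4%) at day 7. The 3 superoxide dismutases did not all go the same way. Besides mitochondrial Sod2, cytosolic Sod1 fell by 1.09 at day 7 (adjusted p = 4.75e-06), with -0.26 at day 1 (adjusted p = 0.0977, and -0.35, past the threshold, without day 1 replicate 4). The day 1 value of Sod1 turned to 0.05 on log2(TPM + 1) and 0.01 on library totals. Extracellular Sod3 rose by 1.00 at day 7 (adjusted p = 2.23e-06), with 0.14 at day 1 (adjusted p = 0.295), which passed on log2(TPM + 1), at 0.44. Cat, catalase, fell (-0.63 and -0.99, adjusted p = 0.000327 and 2.19e-06).

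Of 27 metallothionein regulators and zinc or copper transporters, 9 rose (33.3%) and 2 fell (7.41%) at day 1, and 10 rose (37.0%) and 7 fell (25.9%) at day 7. Mtf1, the zinc-sensing regulator of the metallothioneins, gave 0.15 at day 1 (adjusted p = 0.205) and -0.40 between the AMI days (adjusted p = 0.00230), and on log2(TPM + 1) the first passed, at 0.36, and the second did not, at -0.04. Against sham it was -0.25 at day 7 (adjusted p = 0.0262), a fall that turned to 0.32 on log2(TPM + 1) and was lost without sham replicate 1 or 2 or day 7 replicate 2, 3 or 4 (-0.26 to -0.19). The zinc importers Slc39a6 (1.71 and 1.50, adjusted p = 3.19e-05 and 1.22e-05) and Slc39a11 (1.15 and 1.29, adjusted p = 7.65e-05 and 5.54e-06) rose at both times.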

How the data were processed

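Total RNA of 12 whole hearts was made into cDNA libraries with random hexamers and sequenced as read pairs of 150 bases. Per the labels and the study's methods, the authors used CASAVA 1.8, trimmed reads, aligned them with STAR 2.4.0j to mm10 (GRCm38) and estimated TPM with RSEM. They deposited a table of raw read counts per gene and a table of TPM. The tool behind the counts, its strand setting and its treatment of reads with several matches are not given in the sources used here.

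The 10 genes, the 7 pathway lists and the 9 marker lists were chosen with earlier results of these data known. Genes named from the pathway lists were 14 set ones plus, per list and comparison, the 2 DEGs with the largest change and at least 1 CPM in the highest group. Groups followed the sample titles. Counts were tested with edgeR 4.0.16 (R 4.3.3; TMM, filterByExpr, quasi-likelihood F test, FDR under 0.05, Benjamini-Hochberg), and the SE was taken from the log2 fold change and its F. The alternatives were DESeq2 1.42.0, limma 3.58.1 on log2(TPM + 1) and log2(TPM + 0.1), RLE factors, library totals, no filter, no mitochondrial-genome genes, the compared groups alone, a replicate block and each heart left out. The setting without replicate 2 of sham and of day 1 was added after the data were seen. Levels of log2 CPM used a prior count of 2.

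On counts simulated for day 1 AMI against sham over 15306 genes, edgeR recovered 100 of 100 genes changed 4-fold and 92 of 100 changed 2-fold, with 11 false calls. Recovery was scored by direction and FDR, without the fold limit. The changed genes were drawn only from genes with a mean level above that of Slc7a11, and all other genes had equal means in the groups. The simulation therefore does not bear on Slc7a11 or on the choice of scaling. The labels number the hearts of a group but do not say how the mice were raised or operated on together, so p-values measure the spread between these samples. Same-numbered hearts of different groups did not deviate together (r from -0.24 to 0.23, over 0.1 in 4 of 12 pairs), so numbers were not taken as pairs. Loci were taken from GENCODE M21 (GRCm38), which matched 53706 of the 53801 gene identifiers, and promoters from RefSeq (GRCm38.p6).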

Additional observations from a re-analysis of the deposited data

Results flagged for a closer look

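A gap test within each group of 4 hearts (Dixon's ratio of the gap to the range) marked 8 of 126 groups checked, where chance marks about 1 in 20. Among the 10 genes it marked Mt1 at day 7 AMI: replicate 3 stood at 177 CPM and the other 3 hearts at 94.2 to 104 CPM (ratio 0.883). The same heart had the highest Mt2 (53.1 CPM), Nqo1 (39.2 CPM) and Sod2 (307 CPM) of its group, the highest cardiomyocyte marker sum (48691 CPM) and the lowest fibroblast marker sum (8497 CPM). Whether the marker sums have a part in its Mt1 level was not tested.

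The other marked hearts concern genes of the surrounding lists. At day 1, replicate 4 was the highest for Keap1 (81.3 CPM against 72.6 to 73.2, ratio 0.928) and for Sod1 (209 CPM against 168 to 171, ratio 0.934). Replicate 2 was the highest for Gpx1 (151 CPM against 116 to 121, ratio 0.844). Replicate 1 was the lowest for Nnt (305 CPM against 362 to 372, ratio 0.857) and for Gpx7 (7.04 CPM against 8.54 to 8.73, ratio 0.888). In sham, replicate 1 was the lowest for Sod1 (206 CPM against 218 to 219.8, ratio 0.850), and at day 7 replicate 1 was the highest for Mgst1 (28.4 CPM against 23.9 to 24.5, ratio 0.872).

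In 2 genes the direction against sham was opposite on the AMI days, with both days passing the test on TMM-scaled counts. On log2(TPM + 1) neither gene passed on both days. Bach2 was lower than sham at day 1 and higher at day 7, and the difference between the days was 1.18 on the log2 scale (edgeR, adjusted p = 5.34e-05). On log2(TPM + 1) Bach2 gave -0.18 and 0.35 against sham and 0.54 between the days, none of which passed (limma, adjusted p = 0.563, 0.211 and 0.0891). Mgst1, a microsomal glutathione transferase, was higher at day 1 (0.65, adjusted p = 0.0159, lost without day 1 replicate 4 at 0.47) and lower at day 7 (-0.70, adjusted p = 0.00733), with a difference of -1.36 (adjusted p = 9.88e-05). The Mgst1 fall at day 7 was lost on log2(TPM + 1) (-0.22, limma, adjusted p = 0.419) and on library totals (-0.29, edgeR, adjusted p = 0.207). Its day 1 rise and its fall between the AMI days kept FDR under 0.05 on both of these scalings.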

How the results depend on the processing

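For the 10 genes, 632 of 689 alternative values kept their direction and their side of the FDR threshold, 10 lost it, 28 gained it, 14 changed sign with neither value past it, and 5 reversed. The reversed values were day 7 against sham: Nqo1 on log2(TPM + 1) and log2(TPM + 0.1) (0.0687 and 0.0702), and Gclm on the same scales and on library totals (0.358, 0.373 and 0.0005). Of 2208 values for named list genes, 15 reversed. Against sham at day 7 these were, in the order log2(TPM + 1), log2(TPM + 0.1) and library totals, Bach1 (0.462, 0.507 and 0.380), Mtf1 (0.320, 0.367 and 0.15) and Gsr (0.473, 0.501 and 0.314), and on the TPM scales alone Gpx4 (0.128 and 0.128) and Slc3a2 (0.497 and 0.509). Gpx4 also reversed between the AMI days on the TPM scales (0.242 and 0.242). Library totals and TPM differ from TMM by their construction in the median over all genes; any other cause was not tested.

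DEG counts among the 10 genes were 4 up and 0 down at day 1, 1 and 1 at day 7, and 0 and 3 between the AMI days. Both upward counts against sham include Slc7a11, which passed the filter only through its level after AMI. With no fold limit they were 4 and 1, 2 and 4, and 1 and 6. Day 7 upward was 2 on library totals and with both number 2 hearts left out, and 0 in the fit of the compared groups alone, where Slc7a11 failed the filter. Day 7 downward was 2 with DESeq2 (both fits), RLE factors and the compared groups, and 0 on both TPM scales and library totals. With 1 heart left out the counts ranged over 3 to 4, 0 to 0, 1 to 2, 1 to 3, 0 to 0 and 2 to 5.

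DEG counts in the pathway lists were 9 up and 5 down at day 1, 8 and 16 at day 7, and 3 and 7 between the AMI days, and with no fold limit 42 and 43, 38 and 67, and 24 and 64. On log2(TPM + 1), log2(TPM + 0.1) and library totals they were 15, 21 and 18 up and 2, 2 and 2 down at day 1, and 25, 33 and 28 up and 3, 5 and 7 down at day 7. Between the AMI days they were 6 up on log2(TPM + 0.1) and 2 down on log2(TPM + 1). With 1 heart left out they ranged over 5 to 11, 4 to 6, 7 to 10, 15 to 20, 3 to 4 and 6 to 9. Over all genes at FDR under 0.05, the same 3 scalings gave 6171, 6391 and 6289 higher and 737, 762 and 1061 lower at day 1. At day 7 they gave 9423, 9462 and 8237 higher and 1023, 1009 and 1659 lower. Shares of DEGs among all genes are not given for the alternatives, so these counts and those of the 10 genes have no background there. With the replicate block the 10 genes gave 4 and 0, 1 and 1, and 0 and 3 as before, and no call of theirs changed. Over all genes the block gave 3137 higher and 2746 lower at day 1, and 1 of 12 hearts correlated best with its own number. Depth limits Slc7a11 most, with 8 counts in 4 sham libraries.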

Other observations

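Marker lists of other heart and blood cells are given here as summed levels, with single genes named only for the atrial list. Summed CPM of 8 endothelial markers ranged over 1014 to 1178 in sham, 832 to 887 at day 1 and 1270 to 1423 at day 7. The 8 smooth muscle and pericyte markers gave 1258 to 1399, 895 to 996 and 1327 to 1861 CPM, and the 8 adipocyte markers 419 to 512, 257 to 313 and 373 to 438 CPM. The 8 atrial markers gave 135 to 984, 530 to 1314 and 1289 to 1931 CPM, and 7 erythroid markers 491 to 4467, 421 to 649 and 241 to 971 CPM. The atrial markers did not move together. Against sham, Nppa rose at both times and Dkk3 at day 7, whereas Bmp10 fell at both times and Stard10 at day 7. The median log2 fold change of the atrial list was -0.20 at day 1 and -0.70 at day 7.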
